A study of Mus musculus with 4 samples.

Results

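Expression in sorted bone marrow cells of mice labelled as lacking both Fancd2 and Foxo3a (DKO) was compared with that of wild-type (WT) mice, as the difference of 1 array from 1 array on the log2 scale. The table covered 22180 genes, each taken from probe sets with exactly 1 gene symbol and represented by its brightest probe set, out of 41345 probe sets in all. Of these genes, 12041 reached a floor of 5.51 log2, the median of all gene values, on at least 1 of the 4 arrays. The study held 4 arrays, 1 for each genotype: WT, Fancd2KO, Foxo3aKO and DKO, from mice 2 months old. The cells were marrow mononuclear cells sorted as Lin-ckit+Sca-1+CD34-, which the labels call SLAM cells although CD150 and CD48 are not among the listed antigens. The sources used here do not give strain, sex, alleles, deleted exons, or how many mice or cells lie behind an array. With 1 array per genotype there was no replicate, no test and no p-value, and every difference below describes 2 arrays. The single knockouts are given beside DKO as levels; all comparisons with WT share the WT array and so its error.

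Fancd2 belongs to the Fanconi anaemia pathway, in which its ubiquitinated form brings repair nucleases to DNA interstrand crosslinks. Foxo3a, the product of Foxo3, is a forkhead transcription factor that is held in the cytoplasm by AKT signalling and otherwise binds genes of quiescence, antioxidant defence and apoptosis. Loss of either is known to weaken the long-term function of blood stem cells. Monocytes, which appear below, come in a classical form that leaves the marrow for inflamed tissue and a non-classical form that patrols vessel walls and depends on the nuclear receptor Nr4a1.

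The deleted genes were examined first. Fancd2 had log2 levels of 6.56 (WT), 6.08 (Fancd2KO), 6.67 (Foxo3aKO) and 5.84 (DKO), lower on both arrays labelled as lacking it. Foxo3 had levels of 6.62, 6.72, 6.64 and 6.51 in that order and was not lower on the Foxo3aKO array than on WT. Whether either probe set lies in a deleted part of its gene is not stated, so neither signal checks the labels, and the genotypes are named here as labelled. The genes of the sort came next. Kit had log2 levels of 10.67 (WT), 10.41 (Fancd2KO), 10.57 (Foxo3aKO) and 10.43 (DKO), and Procr, which encodes the stem cell surface protein EPCR, of 7.89, 8.03, 7.80 and 8.05 in that order. Cd34 stood at 10.79, 10.28, 9.67 and 10.36, well above the floor on every array despite the CD34-negative gate. Ly6a, which encodes Sca-1, was not matched to a probe set with 1 symbol. All 20 neutrophil markers also passed the floor, among them the calprotectin gene S100a8 at 13.02 in WT and 12.91 in DKO. The granulocyte antigen gene Ly6g stood at 9.75 in WT and 7.96 in DKO although lineage-positive cells were gated out. The arrays thus carried transcripts known from mature blood cells beside those of stem cells, and the source is called sorted cells here. Which cells of the sort made these transcripts was not tested. In such bulk RNA, fewer cells of a type and less RNA per cell cannot be told apart.

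Among the 12041 genes, 165 (1.37%) were at least 2-fold higher in DKO than in WT and 207 (1.72%) at least 2-fold lower, together 3.09%. The median difference was -0.03 log2, and 84.2% of genes lay within 0.5. Many of the larger differences involved dim signals: WT lay under the floor in 77 of the higher genes and DKO in 93 of the lower ones. Setting every signal under the floor to the floor's own value left 120 higher and 143 lower genes. In 527 genes with a pair of probe sets above the floor, the probe sets disagreed about the difference with an SD of 0.48 log2. Of 22 such genes with a probe set at least 2-fold apart, both probe sets had the same sign in 17 and both were 2-fold apart in 1. Just inside the higher threshold lay Zfp949 (1.0015), Gbp4 (1.0022) and Kcnj14 (1.0029), and just outside it Cd3d (0.992), Ezhip (0.986) and Pard6a (0.985). At the lower threshold Lin9 (-1.0024), Nkx2-3 (-1.0036) and Tceal1 (-1.0049) lay inside, and Osm (-0.9985), Ssbp1 (-0.9933) and Mndal (-0.9916) outside.

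**Figure D1:**
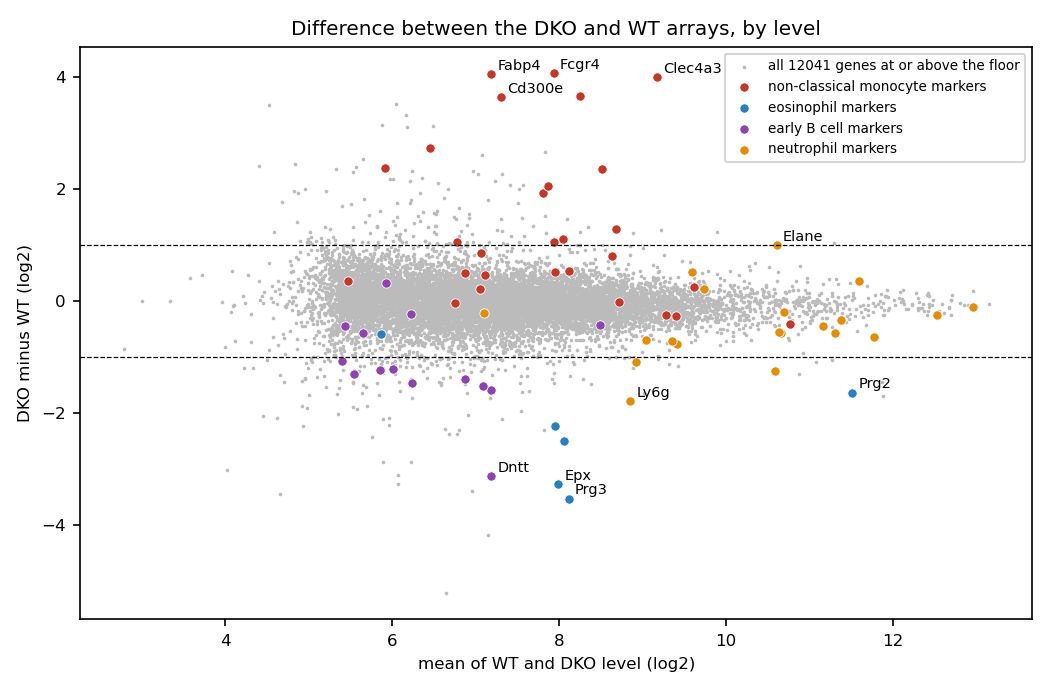
Each grey point is 1 of the 12041 genes, with the mean of its WT and DKO levels (log2) on the x axis and DKO minus WT (log2) on the y axis; coloured points are members of 4 marker lists that reached the floor, and dashed lines mark 2-fold. Non-classical monocyte markers reach up to 4.08 (Fcgr4) while eosinophil markers reach down to -3.53 (Prg3).

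Markers of non-classical monocytes were prominent among the genes high in DKO, holding 9 of the 30 highest named genes, while 0 of the 30 were classical monocyte markers. Of 28 non-classical monocyte markers on the array, 14 were at least 2-fold higher in DKO and 0 lower, 23 were above WT, and the list's median difference was 0.96 log2. Over all 22180 genes, which is the background for marker lists because these used no floor, 0.987% were 2-fold higher, 1.18% were 2-fold lower, 11749 were above WT and the median was 0.02. The markers had been chosen with the leading genes known, so the count describes the list and is no independent evidence. The list's median level ran 6.91 (WT), 6.82 (Fancd2KO), 7.29 (Foxo3aKO) and 8.75 (DKO). Classical monocyte markers did not share this: 2 of 23 were 2-fold higher, 2 lower, and their median was -0.05.

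Levels are given from here on in the order WT, Fancd2KO, Foxo3aKO, DKO. Fcgr4, which encodes the activating IgG receptor CD16-2, had log2 levels of 5.90, 5.71, 6.78 and 9.97, a 16.9-fold difference between DKO and WT. Clec4a3, a lectin receptor gene, stood at 7.17, 6.40, 8.44 and 11.17 and its neighbour Clec4a1 at 6.42, 5.65, 7.27 and 10.09. Cd300e, which encodes an activating receptor of patrolling monocytes, stood at 5.48, 5.95, 6.04 and 9.13. In each of these 4 genes DKO was the high array, and Foxo3aKO lay above WT by a smaller step. Adgre4, an adhesion receptor gene of monocytes, stood at 7.33, 5.76, 6.89 and 9.69, and Csf1r, which encodes the receptor for the monocyte growth factor M-CSF, at 6.85, 6.36, 7.18 and 8.78. Treml4 stood at 6.84, 6.29, 7.02 and 8.90. Cx3cr1, the fractalkine receptor gene that marks patrolling monocytes, stood at 8.04, 7.71, 8.63 and 9.33. Nr4a1 itself differed from WT by 0.80 in DKO, with levels of 8.23, 11.05, 10.09 and 9.03, so that both single knockouts lay above DKO. The markers below WT were Pglyrp1 (-0.41), Spn (-0.26), Ceacam1 (-0.25), Rras (-0.03) and Napsa (-0.01), named here after their values were seen.

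Among classical monocyte markers, the matrix gene Fn1 stood at 8.61, 8.10, 9.70 and 7.21 in WT, Fancd2KO, Foxo3aKO and DKO, a difference of -1.40 for DKO. F13a1, a coagulation factor subunit gene, differed by -1.21 and Ccr2, the receptor that draws classical monocytes out of the marrow, by -0.81. The antigen gene Ly6c2 stood at 11.64 in WT and 11.26 in DKO, and the lysozyme gene Lyz2 at 12.01 and 11.77. Ms4a4c (1.58) and Ly86 (1.03) were the 2 members at least 2-fold higher. The high signal was seen in the non-classical list, chosen with the leading genes known, and not in the median of the classical one. The share of each monocyte form in the sort was not measured, and its part in these differences was not tested.

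**Figure D2:**
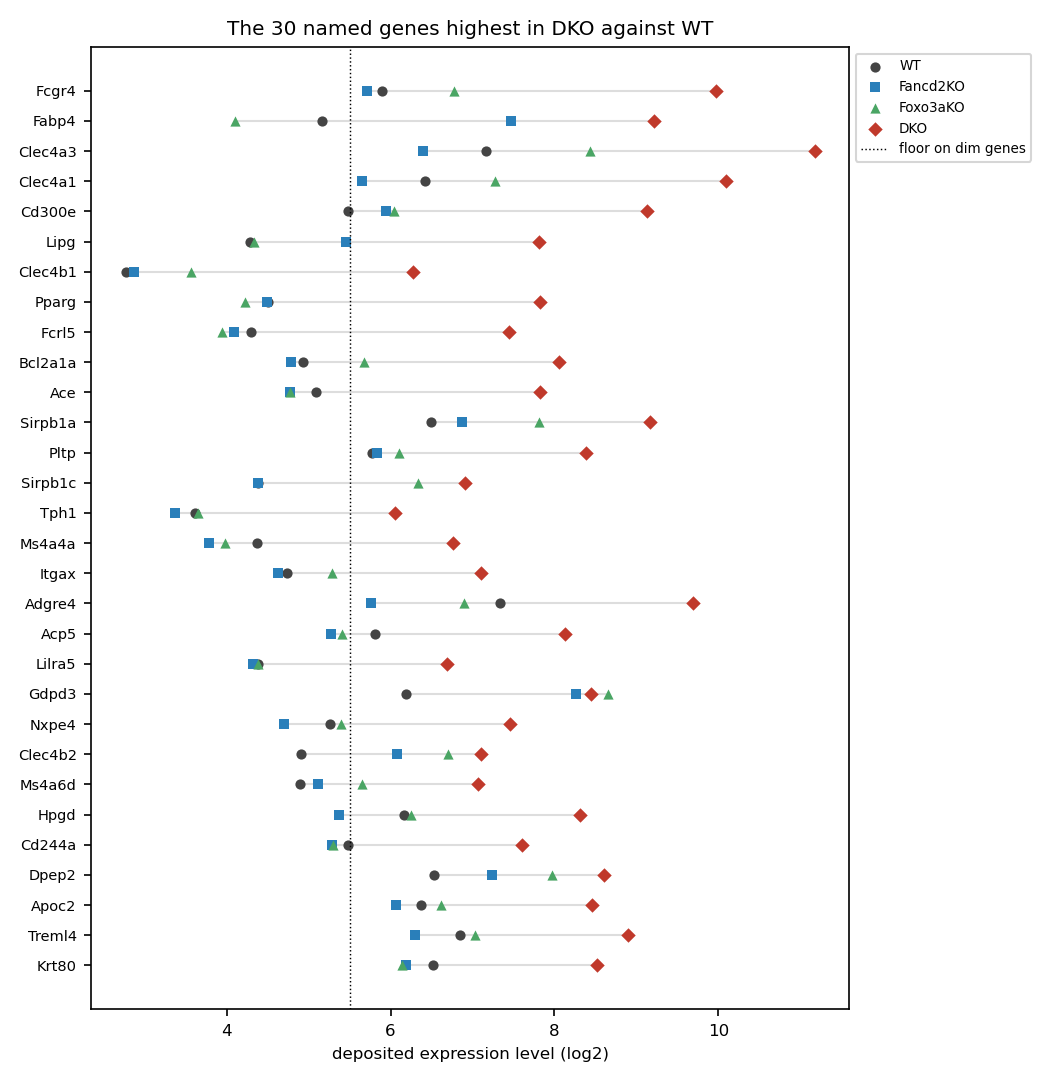
The deposited log2 level (x axis) of the 30 named genes with the largest DKO minus WT difference is shown on each of the 4 arrays, 1 point per array, with the floor on dim genes dotted. The DKO point lies at least 2-fold above all 3 others in 26 of these genes, and Gdpd3 and Clec4b2 instead have a low WT point.

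Across the 30 named genes highest against WT, DKO stood at least 2-fold above each of the other 3 arrays in 26, a pattern seen in 54 of the 12041 genes (0.448%). The genes were chosen for DKO minus WT, so part of this pattern was fixed by the choice. Gdpd3, a lysophospholipase D gene, showed another form, with 6.18 in WT and 8.27, 8.65 and 8.45 in the knockouts. Such a low WT array with all knockouts at least 2-fold above it was seen in 22 genes (0.183%).

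Promoters of 3 of the leading receptor genes are shown because they hold the purine-rich ETS core AGGAAGT, the letters recognised by PU.1, the ETS factor on which monocyte development depends. Each window runs from upstream of the RefSeq start site to just past it in build GRCm38.p6, is written 5′ to 3′ along the gene, and has the core in capitals on whichever strand it lies.
Fcgr4, chr1:171018676-171018975, plus strand: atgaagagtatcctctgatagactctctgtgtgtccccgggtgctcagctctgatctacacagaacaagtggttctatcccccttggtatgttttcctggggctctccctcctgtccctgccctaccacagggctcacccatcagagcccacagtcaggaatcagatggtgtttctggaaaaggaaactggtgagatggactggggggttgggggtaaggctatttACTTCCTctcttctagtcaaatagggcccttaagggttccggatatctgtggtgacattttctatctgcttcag
Cd300e, chr11:115061990-115062289, minus strand: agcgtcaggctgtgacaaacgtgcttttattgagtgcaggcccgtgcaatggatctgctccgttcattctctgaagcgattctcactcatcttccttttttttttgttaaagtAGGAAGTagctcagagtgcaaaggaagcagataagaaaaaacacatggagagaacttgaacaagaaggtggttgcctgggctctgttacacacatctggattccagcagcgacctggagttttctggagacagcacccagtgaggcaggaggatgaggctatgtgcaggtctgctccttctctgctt
Fcrl5, chr3:87435532-87435831, plus strand: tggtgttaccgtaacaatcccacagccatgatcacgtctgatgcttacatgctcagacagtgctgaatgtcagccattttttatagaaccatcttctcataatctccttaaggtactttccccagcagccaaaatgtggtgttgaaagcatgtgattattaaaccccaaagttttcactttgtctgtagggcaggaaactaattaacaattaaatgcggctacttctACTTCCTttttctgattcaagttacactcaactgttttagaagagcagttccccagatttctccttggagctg

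The core was found, on either strand, in 7 of 32 RefSeq promoters of the 30 highest genes (25 of these genes had a promoter in the table), in 4 of 25 promoters of the 30 lowest genes and in 9.35% of all 32851 promoters. Counted from the start site, its first base lay at -24 in Fcgr4, at -137 in Cd300e and at -23 in Fcrl5. Promoters of early B cell markers, which were low in DKO, held it in 4 of 12. The AP-1 site TGANTCA was in 4 of 32 promoters of the highest genes, 4 of 25 of the lowest and 7.81% of all. Each motif was searched on both strands and counted without regard to overlap with another. Promoters were counted, not genes, and a gene with several start sites gave several. Among the lowest genes, Ly6g (ETS core) and Serpinb2 (AP-1 site) were each counted more than once through overlapping windows. The motifs were settled after shares had been seen, longer forms for PU.1, C/EBP, PPAR, NR4A and the FOXO family were also searched and are not reported, and a match is only a stretch of letters.

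Receptors for antibodies showed members high in DKO and 1 low. Of 11 Fc receptor genes above the floor, 4 were at least 2-fold higher and 1 lower (median 0.63). By comparison, 1.37% of all 12041 genes were 2-fold higher and 1.72% lower. Fcrl5, an Fc receptor-like gene best known from B cells, stood at 4.30, 4.08, 3.94 and 7.45 in WT, Fancd2KO, Foxo3aKO and DKO. Fcgr1, the high-affinity IgG receptor gene, stood at 4.75, 4.87, 5.12 and 6.58, and the inhibitory receptor gene Fcgr2b at 6.22, 6.38, 6.94 and 7.58. Fcrla, a B-lineage member, stood at 6.46, 5.79, 6.19 and 4.92 and was low in DKO, by -0.95 with dim signals set to the floor. Fcgr3 differed by -0.05, and Fcer1g, the shared signalling chain of the activating receptors, stood at 10.57 in WT and 11.20 in DKO. The list's median moved from 0.63 to 0.10 without the floor.

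The lectin and paired receptor families were also split. As background for both, 1.37% of all 12041 genes were 2-fold higher and 1.72% lower. Of 14 C-type lectin receptor genes above the floor, 4 were 2-fold higher and 1 lower, with a median of -0.03. Beside Clec4a3 and Clec4a1, the higher members were Clec4b1 (2.77, 2.86, 3.57 and 6.28), which was dim on 3 arrays and differed by only 0.77 once dim signals were set to the floor, and Clec4b2 (4.91, 6.08, 6.70 and 7.10). Clec4d, a receptor for mycobacterial glycolipids that pairs with Clec4e, was the lower member (7.31, 6.71, 7.56 and 5.85). Of 30 paired immunoglobulin-like receptor genes, 8 were 2-fold higher and 1 lower, with a median of 0.08. Sirpb1a stood at 6.49, 6.88, 7.81 and 9.16, and Sirpb1c at 4.38, 4.38, 6.34 and 6.91. Lilra5 stood at 4.38, 4.33, 4.38 and 6.69, dim on every array but DKO. Pilrb1 was high in Foxo3aKO too, with 6.24, 6.28, 8.14 and 8.05. The Clec4a, Clec4b and Sirpb1 genes have close copies that can share probes, which leaves each gene's own value uncertain.

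Several of these receptors are neighbours on a chromosome, in the order given by RefSeq, and the clusters held genes on both sides of WT. In the Clec4 cluster on chromosome 6, 9 genes were on the array and 7 above the floor, with 4 at least 2-fold higher and 1 lower. The shares of all 12041 genes were 1.37% higher and 1.72% lower. The high genes Clec4b1 and Clec4b2 flank Clec4a2, which differed by 0.05, while Clec4d (-1.46) and Clec4e (-0.30) follow at the far end. On chromosome 1, Fcrla (-1.54) lies near Fcgr2b (1.36), which is followed by Fcgr4 (4.08) and Fcgr3 (-0.05). In the Ms4a cluster on chromosome 19, 4 of 8 genes above the floor were higher, led by Ms4a4a (4.37, 3.78, 3.98 and 6.76) and Ms4a6d (4.89, 5.11, 5.65 and 7.06), and Ms4a2, the mast cell IgE receptor beta chain gene, was lower (5.77, 4.87, 5.36 and 4.42). On chromosome 7, Itgam, the integrin gene of the CD11b chain, differed by -0.23, while the adjacent Itgax (CD11c; 4.73, 4.62, 5.28 and 7.10) and Itgad (4.23, 4.51, 4.49 and 6.20) differed by 2.37 and 1.97. These clusters were picked after their values were seen.

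**Figure D3:**
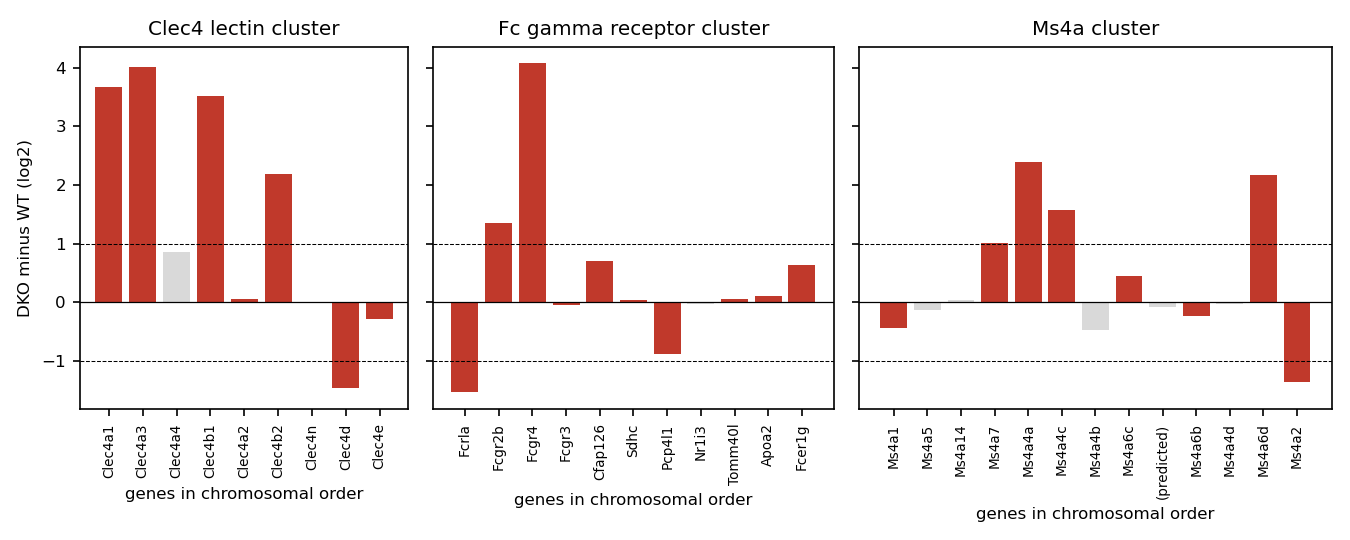
Bars give DKO minus WT (log2) for the protein-coding genes of 3 chromosomal clusters in RefSeq order (x axis, not to distance), red for genes at or above the floor and grey for genes under it on every array, with dashed lines at 2-fold. High genes such as Fcgr4 (4.08) stand next to genes near 0 such as Fcgr3 (-0.05), and each cluster holds a gene at least 2-fold lower.

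Lipid handling genes of macrophages were higher in DKO in a few members. Of 33 lipid uptake and PPAR gamma genes above the floor, 5 were at least 2-fold higher and 0 lower, and the median was 0.15 against -0.03 for all genes. Among all 12041 genes, 1.37% were 2-fold higher and 1.72% lower. Pparg, the nuclear receptor of fat storage and of alveolar macrophages, stood at 4.50, 4.50, 4.23 and 7.83 in WT, Fancd2KO, Foxo3aKO and DKO. Its known target Fabp4, a fatty acid carrier, stood at 5.16, 7.47, 4.10 and 9.22, so Fancd2KO was also above WT, and it stands on the non-classical monocyte list as well. The endothelial lipase gene Lipg stood at 4.28, 5.46, 4.34 and 7.81, and Pltp, which encodes a phospholipid transfer protein, at 5.77, 5.83, 6.10 and 8.38. Apoe (6.63, 6.74, 6.46 and 7.68) was the fifth. Apoc2, an activator of lipoprotein lipase that was not on the list, stood at 6.38, 6.07, 6.62 and 8.45. With every dim signal set to the floor, Fabp4 differed by 3.71 and Pparg by 2.32.

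Tissue macrophage markers were higher to a smaller degree, and a few antigen presentation genes were too. Of 22 tissue macrophage markers, 7 were at least 2-fold higher, 0 lower and 19 above WT (median 0.49). That median was 0.15 with dim signals set to the floor and 0.97 over the markers that reached the floor. Of all 22180 genes, 0.987% were 2-fold higher, 1.18% were 2-fold lower and 11749 genes lay above WT. Adgre1, which encodes the macrophage antigen F4/80, stood at 6.62, 5.45, 6.86 and 8.39, and the lysosomal protein gene Cd68 at 8.59, 8.86, 9.44 and 9.86. C1qb, a complement chain made by macrophages, stood at 6.84, 6.61, 5.93 and 8.01. Of the 22 markers, 7 lay under the floor on every array, and Spic, the factor of red pulp macrophages, differed by -0.36. Of 15 MHC class II presentation genes 8 lay above WT and 7 below, with a median of 0.12, and 3 were 2-fold higher: Lgmn (5.30, 5.89, 5.83 and 6.81), Ctss (1.24), both lysosomal proteases, and the class II chain H2-Eb1 (1.02). The class II chains H2-Ab1 (0.94) and H2-Aa (0.79) came near, and H2-Ob, part of an inhibitor of peptide loading, lay at -0.85. The background for the MHC class II counts was all 12041 genes, of which 1.37% were 2-fold higher and 46.5% lay above WT. The prostaglandin-degrading enzyme gene Hpgd (6.16, 5.37, 6.25 and 8.31) and the acid phosphatase gene Acp5 (5.81, 5.27, 5.41 and 8.13) were also among the 30 highest. So were Tph1 (3.61, 3.37, 3.65 and 6.06), an enzyme of serotonin synthesis whose difference was 0.55 with dim signals set to the floor, and Bcl2a1a (4.93, 4.78, 5.68 and 8.05), a survival gene with close copies.

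Eosinophil granule genes led the genes low in DKO. Of 8 markers on the array, 5 were at least 2-fold lower, 0 higher, and all 8 lay below WT, with a median of -1.93. Over all 22180 genes, 1.18% were 2-fold lower and 11749 lay above WT. This list, like the other marker lists, was chosen with earlier results of these data known, so its counts are no independent evidence. Prg3, a granule major basic protein gene, stood at 9.88, 7.84, 8.73 and 6.35, in DKO 11.5-fold lower than WT. Epx, the eosinophil peroxidase gene, stood at 9.62, 6.92, 7.82 and 6.35. The lipoxygenase gene Alox15 stood at 9.06, 6.72, 7.87 and 6.84, and the ribonuclease gene Ear6 at 9.31, 6.94, 8.28 and 6.81. Prg2 stood at 12.33, 10.86, 11.54 and 10.69. In each of these genes WT was the high array. The list's median level ran 9.18, 6.82, 7.84 and 6.35. Il5ra and Ccr3, receptors of eosinophils, lay under the floor on every array.

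Across the 30 named lowest genes, WT stood at least 2-fold above each knockout array in 14, a pattern seen in 38 of 12041 genes (0.316%), and DKO stood at least 2-fold below each of the others in 6, a pattern seen in 22 (0.183%); Prg3 met both rules. Part of this was fixed by choosing the genes for DKO minus WT. Ppbp, the platelet chemokine gene, was of the first kind, with 8.66, 5.55, 5.37 and 5.27. Its list of 17 platelet markers had a median of -0.13, with Ppbp the 1 member 2-fold lower and Vwf the 1 member 2-fold higher (1.02). The shares of all 22180 genes were 1.18% lower and 0.987% higher. Stfa3, a stefin protease inhibitor gene of granulocytes, was of the second kind, with 7.32, 6.43, 8.23 and 4.45. Hmgn5, which encodes a nucleosome-binding protein, was of the second kind too, with 7.96, 7.39, 6.94 and 5.59.

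**Figure D4:**
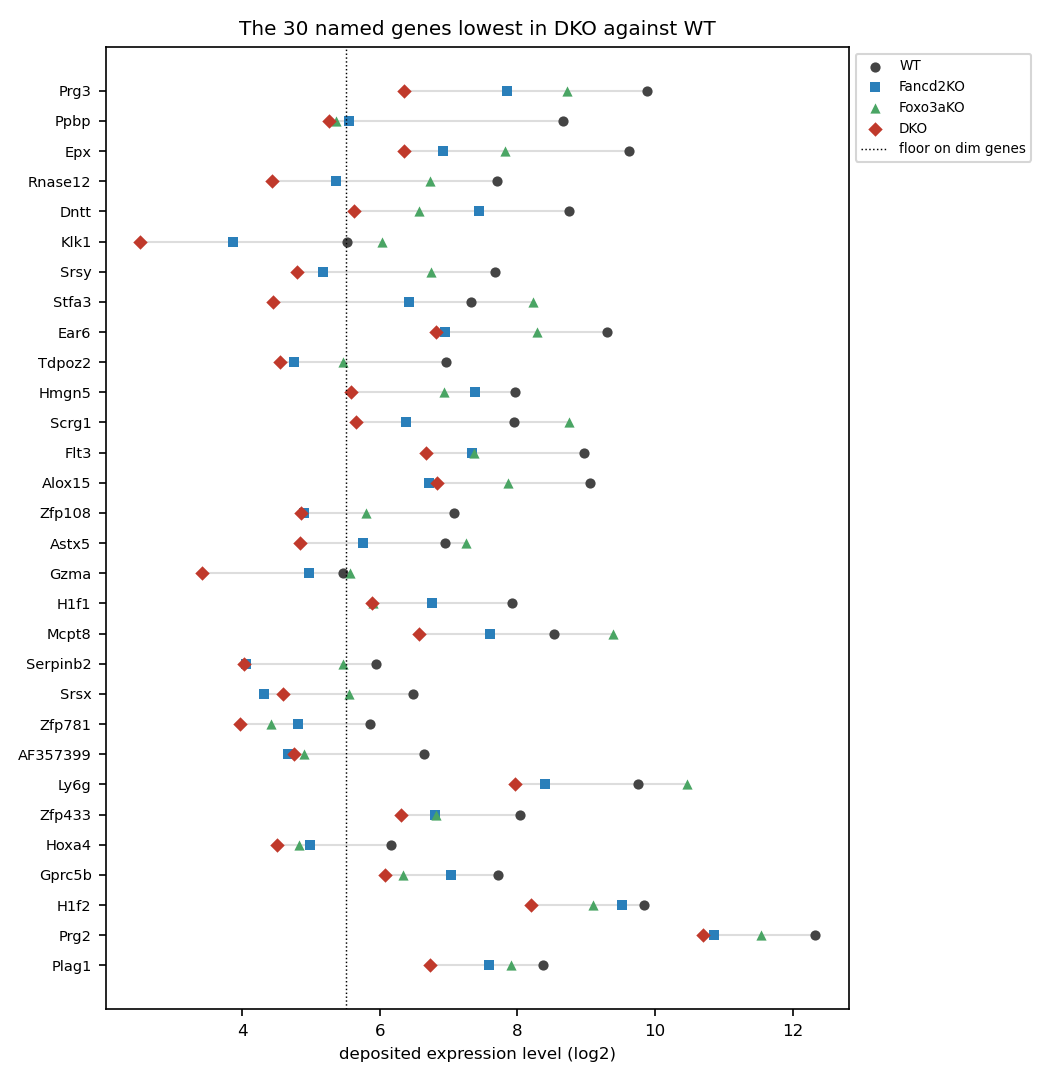
The deposited log2 level (x axis) of the 30 named genes with the largest negative DKO minus WT difference is shown on each array, 1 point per array, with the floor dotted. The WT point lies at least 2-fold above all 3 knockout points in 14 of them, such as Prg3 and Ppbp, and the DKO point lies at least 2-fold below all others in 6, such as Stfa3, Mcpt8 and again Prg3.

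Basophil and neutrophil markers were lower in part. Among 13 mast cell and basophil markers 3 were 2-fold lower: Mcpt8 (8.53, 7.60, 9.39 and 6.56) and Prss34 (8.44, 7.46, 8.87 and 6.84), both basophil proteases, and Ms4a2, whose difference was -0.27 with dim signals set to the floor. The stem cell and mast cell factor Gata2 differed by 0.03. Of 20 neutrophil markers, 16 lay below WT, 3 at least 2-fold: Ly6g (9.75, 8.40, 10.47 and 7.96), Retnlg (11.21, 10.30, 11.50 and 9.97) and the chemokine receptor gene Cxcr2 (9.47, 8.93, 9.90 and 8.39), with a median of -0.49. The 4 above WT were Elane (1.01), Fcnb (0.52), Mpo (0.36) and Prtn3 (0.22), of which Elane, Mpo and Prtn3 encode primary granule proteins made by early granulocyte precursors. Those 4 were named after their values were seen. Foxo3aKO was the highest of the 4 arrays in Ly6g, Retnlg and Cxcr2. The list's median level was 10.85, 10.58, 11.58 and 10.37 in WT, Fancd2KO, Foxo3aKO and DKO.

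Early B cell genes were low in DKO, and T and NK cell genes were not. Of 17 early B cell markers, 9 were at least 2-fold lower and 0 higher, with a median of -1.07. Dntt, the enzyme that adds bases at antigen receptor joints, stood at 8.74, 7.44, 6.57 and 5.62 in WT, Fancd2KO, Foxo3aKO and DKO. Ly6d, a marker of B-biased lymphoid progenitors, stood at 7.98, 7.24, 7.07 and 6.39, the coactivator gene Pou2af1 at 7.84, 7.06, 6.58 and 6.33, and Cd79a at 7.56, 6.81, 6.84 and 6.17. The adaptor gene Blnk was low in DKO alone, with 6.62, 6.80, 6.59 and 5.40. Pax5, the factor that fixes B cell identity, differed by -0.22 and Ebf1 by -0.57. Setting dim signals to the floor brought the list's median to -0.43. Antigen receptor segments made up 9 of the 207 genes 2-fold lower and 1 of the 165 higher. Other classes given as counts only leaned the same way. Chemosensory receptors had 9 lower and 2 higher, and predicted genes 40 lower and 17 higher. How many segments were compared is not given, so their split cannot be tied to B cells. The 22 T and NK cell markers had a median of -0.04 and 10 above WT, with Gzma (5.47, 4.97, 5.56 and 3.42) the 1 member 2-fold lower, a dim gene whose difference was 0.00 once these were set to the floor.

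Multipotent progenitor genes were lower in part; these cells follow the stem cell and have lost long-term renewal. Of 22, 5 were at least 2-fold lower and 0 higher, 15 lay below WT, and the median was -0.43. Flt3, the cytokine receptor that marks lymphoid-primed progenitors, stood at 8.97, 7.34, 7.37 and 6.67. Satb1, a chromatin organiser of lymphoid genes, stood at 6.68, 5.80, 6.33 and 5.38, and Tespa1 at 6.83, 5.17, 5.42 and 5.82. Il7r and Dntt were the others, and both are also on the early B cell list. Cd48 differed by 0.52 and Cd34 by -0.43, in opposite directions.

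Stem cell genes differed little in their median. Of 40, 3 were at least 2-fold higher and 1 lower, with a median of 0.11. All 22180 genes had 0.987% higher, 1.18% lower and a median of 0.02. Neo1, which encodes the neogenin receptor, stood at 5.32, 6.24, 6.65 and 7.14, the cytokine signalling inhibitor gene Socs2 at 6.03, 7.90, 6.85 and 7.50, and Vwf at 6.19, 7.27, 6.54 and 7.22. With its 2 probe sets averaged, Socs2 differed by 0.92, short of 2-fold. Tek, the receptor for the niche factor angiopoietin, was the lower gene, with 6.99, 6.81, 6.44 and 5.74. Meis1 differed by -0.57 and Hoxa9 by -0.77, both transcription factors of stem cells, while Slamf1, which encodes CD150, differed by 0.57. Of 11 Hoxa and Hoxb genes above the floor, a family chosen after its values were seen, 9 lay below WT, led by Hoxa4 (6.16, 4.98, 4.83 and 4.51), which differed by -0.66 with dim signals set to the floor. Among all 12041 genes above the floor, 46.5% lay above WT. The family's median was -0.12 in DKO, -0.47 in Fancd2KO and -0.49 in Foxo3aKO, each minus the same WT array.

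**Figure D5:**
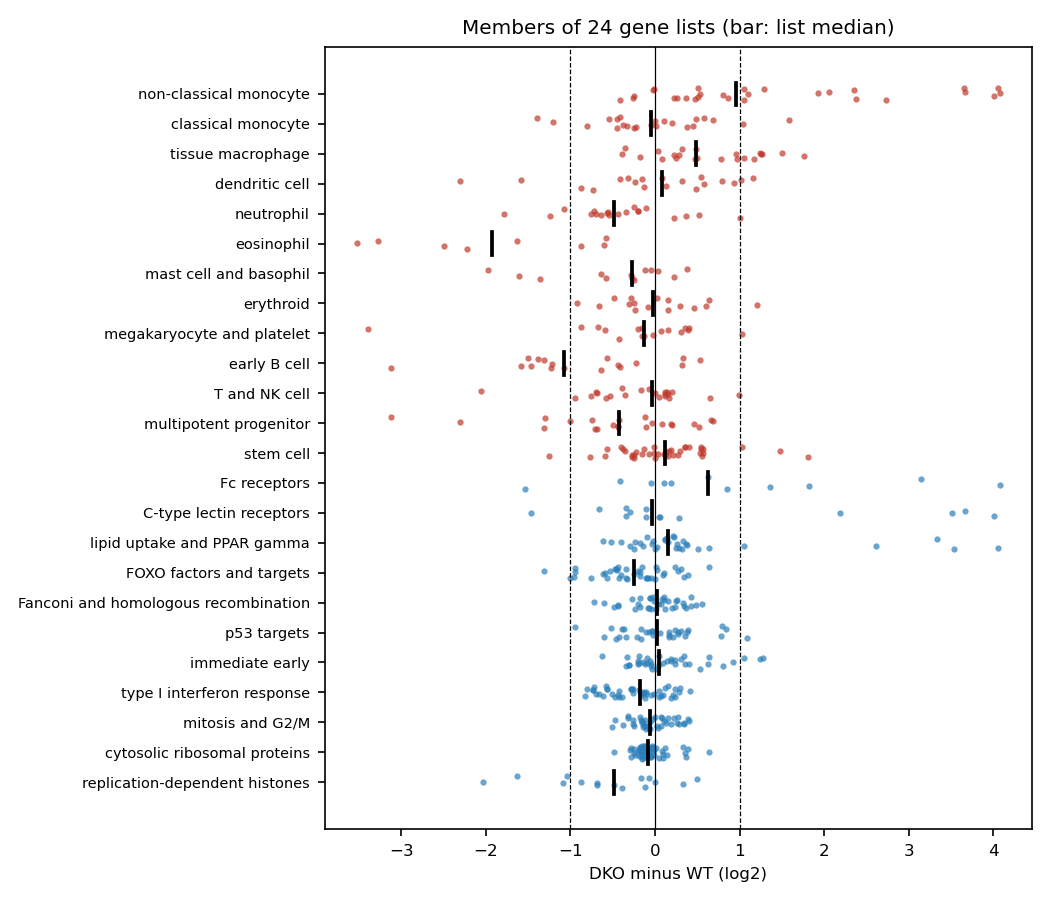
Each point is a gene of 1 of 24 lists, at its DKO minus WT difference (log2, x axis), red for marker lists (all levels) and blue for process lists (genes at or above the floor); black bars are list medians and dashed lines mark 2-fold. Medians run from -1.93 for eosinophil markers to 0.96 for non-classical monocyte markers, and Fc and lectin receptors show a few far points beside members near 0.

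Targets of FOXO factors were low in many members and by small amounts. Of 39 FOXO factors and targets above the floor, 29 lay below WT in DKO, where 46.5% of all genes lay above it, and 2 were at least 2-fold lower, 0 higher, with a median of -0.25. Among all 12041 genes, 1.72% were 2-fold lower. Foxo1, a close relative of Foxo3, stood at 7.33, 7.68, 7.46 and 7.24. The members past 2-fold were Il7r (6.20, 5.64, 5.54 and 4.89), a cytokine receptor gene of lymphoid cells, and Cdkn1b. Setting dim signals to the floor took Il7r to -0.69 and left Cdkn1b at -1.0063. Cdkn1b, the cell cycle inhibitor p27, stood at 9.35, 8.83, 8.46 and 8.34, and Sesn3, a stress sensor, at 8.25, 7.62, 7.44 and 7.29. The mitophagy receptor gene Bnip3 stood at 6.63, 6.39, 6.10 and 5.68, the ubiquitin ligase gene Fbxo32 at 6.64, 5.95, 5.75 and 5.88, and the catalase gene Cat differed by -0.62. The p53-induced gene Trp53inp1 was lowest in DKO, with 8.22, 7.89, 8.09 and 7.27. Klf4 (0.64), Bcl6 (0.39) and Mxi1 (0.34) lay above WT. The median of the list was -0.05 in Fancd2KO and -0.13 in Foxo3aKO, each minus WT and so sharing the WT array.

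The 4 promoters of the list that hold the FOXO core GTAAACA, the letters bound by forkhead factors, are shown to set the core beside its gene. Windows and strands are as above, and capitals mark the core or its complement.
Txnip, chr3:96557707-96558006, plus strand: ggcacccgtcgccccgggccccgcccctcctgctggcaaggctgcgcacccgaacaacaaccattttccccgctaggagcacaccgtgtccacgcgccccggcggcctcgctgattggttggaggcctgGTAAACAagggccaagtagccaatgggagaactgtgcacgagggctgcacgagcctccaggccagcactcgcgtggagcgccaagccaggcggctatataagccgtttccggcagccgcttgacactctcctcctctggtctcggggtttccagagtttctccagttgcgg
Sesn1, chr10:41810324-41810623, plus strand: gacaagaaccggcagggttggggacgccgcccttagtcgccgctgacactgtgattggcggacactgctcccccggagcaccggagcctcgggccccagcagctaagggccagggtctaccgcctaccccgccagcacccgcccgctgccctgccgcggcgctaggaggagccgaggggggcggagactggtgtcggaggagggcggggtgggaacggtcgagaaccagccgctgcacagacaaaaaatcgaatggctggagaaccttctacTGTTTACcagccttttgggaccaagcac
Bcl2l11, chr2:128125788-128126087, plus strand: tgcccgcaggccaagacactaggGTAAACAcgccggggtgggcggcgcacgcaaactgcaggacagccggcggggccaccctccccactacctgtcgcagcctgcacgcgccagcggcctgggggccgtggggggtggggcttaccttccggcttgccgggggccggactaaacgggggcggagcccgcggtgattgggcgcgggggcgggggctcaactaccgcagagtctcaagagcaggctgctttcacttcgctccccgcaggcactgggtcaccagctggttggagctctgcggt
Mxi1, chr19:53329445-53329744, plus strand: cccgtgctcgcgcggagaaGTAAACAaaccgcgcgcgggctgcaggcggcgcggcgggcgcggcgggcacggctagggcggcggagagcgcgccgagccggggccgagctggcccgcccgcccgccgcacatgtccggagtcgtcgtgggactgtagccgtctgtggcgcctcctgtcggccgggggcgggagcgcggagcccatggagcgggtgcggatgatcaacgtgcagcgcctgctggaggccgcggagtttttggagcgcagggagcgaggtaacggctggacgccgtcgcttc

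These 4 were 11.1% of 36 promoters of the list (30 of 39 genes had one), against 3.65% of all 32851 promoters, and none of the promoters of the 30 highest or 30 lowest genes held it. Counted from the start site, its first base lay at -121 in Txnip, 22 in Sesn1, -227 in Bcl2l11 and -231 in Mxi1. Txnip, a redox regulator, stood at 11.16, 10.14, 10.35 and 10.57, Sesn1 at 8.71, 8.53, 8.14 and 8.25, and the apoptosis gene Bcl2l11 at 6.52, 6.85, 6.54 and 6.27. Mxi1, an antagonist of Myc, stood at 10.80, 10.57, 10.69 and 11.14, the opposite side of WT from the others.

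Genes of the other pathway named by the knockout and of cell state had list medians near WT. Among all 12041 genes, 46.5% lay above WT and the median was -0.03. Of these, 1.37% were 2-fold higher and 1.72% lower. Of 36 Fanconi and homologous recombination genes, 0 were 2-fold apart, 19 lay above WT and the median was 0.02, with Fancd2 at -0.72, Fance at -0.61 and the helicase gene Brip1 at 0.55. Of 32 p53 targets 1 was 2-fold higher, Phlda3 (5.55, 5.69, 5.54 and 6.63), an inhibitor of AKT, and the median was 0.02. Cdkn1a, which encodes p21 and is on both lists of p53 and FOXO targets, stood at 7.21, 10.22, 8.14 and 7.48. DNA replication genes (42, median -0.06) and mitosis genes (42, median -0.07) had 0 members 2-fold apart. The 25 cell cycle inhibitor and quiescence genes had a median of -0.03, with 12 above WT. In that list 2 were just past 2-fold lower, Cdkn1b (-1.0063) and Lin9 (-1.0024), and 0 were 2-fold higher. Of 46 type I interferon response genes 33 lay below WT (median -0.18, 0 at 2-fold), led by Ifit1 (-0.83) and Oasl2 (-0.80). Ribosomal protein genes had 44 of 56 below WT by a median of -0.09.

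Immediate early genes, which were high in the single knockouts, lay closer to WT in DKO. The median over 38 genes was 0.98 for Fancd2KO, 0.86 for Foxo3aKO and 0.04 for DKO, each minus the same WT array. Nr4a2 stood at 6.62, 9.92, 9.31 and 7.89, and Atf3 at 6.37, 8.47, 8.59 and 7.42. In DKO 3 of the 38 genes were 2-fold higher, against 1.37% of all 12041 genes. Neuronal transcripts had the same form, with medians of 0.91, 0.43 and -0.0011 in that order. Cpe stood at 4.47, 7.29, 6.43 and 3.76. The maternally expressed RNAs Meg3 (5.64, 7.06, 5.46 and 4.26) and Rian (5.03, 6.48, 5.13 and 3.97), from a single imprinted domain, were lowest in DKO and highest in Fancd2KO, although most of these levels lay near or under the floor. Hmox1, the haem-degrading enzyme that macrophages make, stood at 7.63, 7.87, 7.62 and 8.87.

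Zinc finger and histone genes were lower in part. Of 277 Zfp genes above the floor, a family chosen after its values were seen, 11 were 2-fold lower and 1 higher, 178 lay below WT, and the median was -0.17 in DKO, -0.19 in Fancd2KO and -0.20 in Foxo3aKO against WT. Of these Zfp genes 35.7% lay above WT, where 46.5% of all 12041 genes did. Over all 12041 genes, 1.72% were 2-fold lower and 1.37% higher. Zfp108 led the lower Zfp genes, with 7.08, 4.89, 5.80 and 4.85. These genes resemble one another and can share probes. Of the 53 replication-dependent histone genes listed only 20 were on the array; 15 lay above the floor, 4 of them 2-fold lower, among them H1f1 (7.92, 6.77, 5.91 and 5.89) and H1f2 (9.84, 9.53, 9.10 and 8.20). Both singles lay below WT here as well.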

How the data were processed

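RNA of 4 samples was hybridised to Affymetrix Mouse Gene 2.0 ST arrays, 1 per genotype. The deposited log2 values were made by the authors in Affymetrix's Expression Console software (per the submitters' processing notes); the sources used here give no version, summarisation, normalisation or filter. Array medians ran from 5.27 to 5.34 log2, and the sorted values of an array strayed from the 4 arrays' mean by no more than 0.0889 at any rank; they were used as deposited. The number of arrays limits the precision.

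Of 41345 probe sets, 23521 had 1 gene symbol, 1814 several and 16010 no listed gene. Genes were named from the platform annotation, and 23328 Entrez identifiers were found in the RefSeq table of GRCm38.p6. The brightest probe set by the mean of the 4 arrays stood for a gene, and a gene entered the comparison when its highest value reached the median of all gene values, 5.51 log2. Marker lists used no floor. WT was subtracted from DKO; 2-fold is a log2 difference of 1. No test was run, because there was 1 array per genotype.

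The members and the 47 lists were chosen with earlier results of these data known. Named were Fancd2, Foxo3, the sorting antigens, the 30 genes with the largest difference each way, and up to 6 members of each list by difference, with up to 4 by level for marker lists; genes outside this rule were named after their values were seen: genes with a shown promoter, in a chromosomal cluster or at the 2-fold threshold, Csf1r, Blnk, Pax5, Ebf1, Spic, Foxo1, Bcl6, Cdkn1a, Ccr3, and the monocyte and neutrophil markers given as lying on the other side of WT. Given as counts only were predicted genes, antigen receptor segments, chemosensory receptors, small RNAs and pseudogenes, 1181 of the 12041 genes. The counting was checked on simulated data with much less noise than the disagreement between probe sets. That checks the arithmetic and not the precision of a difference. When only the brightest probe set of a gene was lowered, a few genes were missed because another became the brightest. Alternatives were other normalisations, floors, probe set rules and fold thresholds. Python 3.11.15, pandas 2.3.3, R 4.3.3 and limma 3.58.1 were used.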

Additional observations from a re-analysis of the deposited data

How the results depend on the processing

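The counts of 165 higher and 207 lower genes became 170 and 195 with quantile normalisation, 149 and 228 with arrays centred on their medians and 162 and 206 with cyclic loess. They moved most with the level and fold limits: a stricter floor, the 75th percentile, gave 83 and 101, a 1.5-fold threshold 608 and 758, and a 3-fold threshold 57 and 50, where the balance turned. The brightest probe set on WT and DKO alone differed in 31 genes and changed neither count. Of 47 list medians, 31 kept their sign under every alternative run and 11 changed it, among them classical monocyte, p53 and Fanconi lists, all at most 0.08 in size. Another 5 (T and NK cell, endothelial and stromal, immediate early, mast cell and basophil, megakaryocyte and platelet) reached 0.00. Applying the floor to marker lists, an alternative chosen after seeing the data, took dendritic cell markers from 0.08 to -0.13 and mast cell and basophil markers from -0.28 to -0.64. List medians moved by more than the probe set disagreement in the Fc receptors without the floor and in early B cell markers with dim signals raised. With dim signals raised, 28 of the 30 highest and 24 of the 30 lowest named genes stayed 2-fold apart, and when probe sets were averaged Tdpoz2 differed by -0.92. No paired analysis was possible because each genotype had 1 array and the labels carry no replicate numbers. Leaving out an array would leave no comparison.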
